A study of Mus musculus with 12 samples.

Results

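The genes described here encode 9 secreted proteins of wound repair, namely thrombospondin-1 (Thbs1), tenascin-C (Tnc), osteopontin (Spp1), Cthrc1, fibulin-2 (Fbln2), Sparc, fibronectin (Fn1), thrombospondin-2 (Thbs2) and periostin (Postn). They were chosen by name, as the probes whose gene symbol in the scanner output was a member, which gave 20 of 56605 probes and 9 of 37074 genes. Their mRNA was followed in the mouse cecum after cauterization, an injury of the gut wall that leads to peritoneal adhesions. Total RNA of whole cecum tissue from C57BL/6 mice was labelled with Cy3 and hybridised to 12 arrays, 1 sample per array, with 3 samples in each of 4 groups. The control group had a sham operation and was sampled at 0 h. The other groups were cauterized and sampled 3, 12 or 72 h later. No later sham sample was measured, so time after surgery and anaesthesia cannot be told apart from cauterization. Ages were not given in the sources used here. The 3 comparisons against sham share the same 3 sham arrays.

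Matricellular proteins are secreted into the extracellular matrix, but they act mainly as signals and adaptors between matrix, growth factors and cell surface receptors, and less as load-bearing structure. Most are scarce in resting adult tissue and are made again when tissue is injured. In a healing wound they are known to reach the matrix in an order, with proteins of the clot and of inflammatory cells first and proteins that organise new collagen later. Fibronectin is a structural glycoprotein in the strict sense, and it belongs here because it forms the provisional matrix on which the others are laid down. In peritoneal injury, mesothelial cells, fibroblasts, macrophages and platelets are all known sources of such proteins.

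Each level below is log2 of the background-corrected spot intensity minus the 75th percentile of the same array, so that 0 marks that percentile. Levels are compared between samples of the same probe and not between probes. A gene with several probes was read through the one that was brightest on average over the 12 arrays. A call means that limma gave more than a 2-fold change with an adjusted p under 0.05. Signal well above background was found on all 12 arrays for 17 of the 20 member probes, and 0 spots were saturated. The exceptions were the second probe of Cthrc1, which was above background on 0 arrays, the last of Sparc on 8 and the last of Postn on 10.

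The arrays lay on 2 slides, and this touches the 72 h results. The sham arrays, the 3 h arrays and replicates 1 and 2 of the 12 h group were on slide 1, while 12 h replicate 3 and the 72 h arrays were on slide 2. Slide and the 72 h time point were thus separable by 12 h replicate 3 alone. All epithelial and smooth muscle markers, 12 and 10 genes, were above background on all arrays. The samples are labelled male, but Xist, the RNA that silences an X chromosome in female cells, was well above background on 12 of 12 arrays, while Y-linked Ddx3y and Eif2s3y were so on 0 arrays and Uty on 1. Kdm5d, also Y-linked, was above background on 12 arrays by its brightest probe. Xist, Ddx3y and Eif2s3y thus go against the labelled sex in all groups alike, while the Kdm5d probe does not.

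Of the 20 probes, 5 match the genome in pieces with a gap between them, so that they read joined mRNA. They are printed because they show which part of each transcript the spot captured. The Tnc probe matches chr4:63674248-63675011 on the minus strand, the Thbs2 probe chr17:14804526-14805789 on the minus strand, the Sparc probe chr11:55209449-55212106 on the minus strand, and the Fn1 probes chr1:71637422-71639659 and chr1:71694694-71695800 on the minus strand (mm9, as the scanner output gives them). Each probe is 60 bases long, so these spans of 764, 1264, 2658, 2238 and 1107 bases hold sequence that the probe lacks. No genome of this build was used here, and exons were not assigned.
Tnc, second probe: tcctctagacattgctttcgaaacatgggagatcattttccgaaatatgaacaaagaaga
Thbs2: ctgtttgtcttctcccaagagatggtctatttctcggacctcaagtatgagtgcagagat
Sparc, second probe: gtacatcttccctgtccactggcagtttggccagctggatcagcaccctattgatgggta
Fn1, second probe: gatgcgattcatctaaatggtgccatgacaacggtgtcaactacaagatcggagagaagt
Fn1, other probe: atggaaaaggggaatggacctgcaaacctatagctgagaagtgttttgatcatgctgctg

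Sequence before the gene start was at hand in RefSeq for 6 of the 9 genes, with 9 windows of 250 bases (build GRCm38.p6). Thbs1, Fn1 and Cthrc1 had no entry. The windows are printed for 2 genes called higher by 12 h, Tnc and Spp1, and 2 called higher from 12 to 72 h, Fbln2 and Postn. Spp1 also had its highest mean at 72 h. For Spp1 and Postn the window with matches is printed, and their other window held 0. Capitals mark matches to any of 7 motifs searched on both strands, namely TGANTCA for AP-1, TATAAA for the box of that name, CCAAT likewise, GGGCGG for the GC box, GGGANTTCC for the NF-kB core, CACGTG for the E-box and GTCTAGAC for a pair of SMAD boxes. The Tnc window lies at chr4:64047016-64047265 on the minus strand, the Spp1 window at chr5:104434861-104435110, the Fbln2 window at chr6:91212514-91212763 and the Postn window at chr3:54360857-54361106, these on the plus strand.
Tnc: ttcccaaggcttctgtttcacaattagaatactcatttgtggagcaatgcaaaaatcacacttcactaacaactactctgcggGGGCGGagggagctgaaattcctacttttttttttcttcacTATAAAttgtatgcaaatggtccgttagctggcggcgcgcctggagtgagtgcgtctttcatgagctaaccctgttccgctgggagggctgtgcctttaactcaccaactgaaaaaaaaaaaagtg
Spp1: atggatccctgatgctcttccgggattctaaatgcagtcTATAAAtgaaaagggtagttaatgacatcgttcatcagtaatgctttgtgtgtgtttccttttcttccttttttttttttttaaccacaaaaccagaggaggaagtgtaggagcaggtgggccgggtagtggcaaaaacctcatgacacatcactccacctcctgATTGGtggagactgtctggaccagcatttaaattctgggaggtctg
Fbln2: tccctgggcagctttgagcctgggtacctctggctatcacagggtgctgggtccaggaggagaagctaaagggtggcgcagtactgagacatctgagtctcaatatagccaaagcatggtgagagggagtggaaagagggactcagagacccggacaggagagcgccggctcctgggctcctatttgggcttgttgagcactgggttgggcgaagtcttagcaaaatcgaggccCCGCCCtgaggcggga
Postn: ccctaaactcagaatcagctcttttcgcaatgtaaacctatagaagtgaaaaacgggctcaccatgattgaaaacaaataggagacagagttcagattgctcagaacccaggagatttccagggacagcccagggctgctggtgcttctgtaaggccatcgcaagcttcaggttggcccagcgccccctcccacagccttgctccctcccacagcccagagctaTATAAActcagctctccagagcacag
The letters TATAAA lay 26 bases before the start in the Postn window, 126 in that of Tnc and 211 in that of Spp1. All hits given here are matches of letters at any position, and whether they act as such boxes was not tested. A GC box lay 167 bases before the start of Tnc and 16 before that of Fbln2, and a CCAAT box 46 before that of Spp1. Over all 9 windows, TATAAA was found in 5, against 12.4% of all windows of the same length in the table. A GC box match was found in 3 (32.7% of all) and a CCAAT match in 2 (33.8% of all). AP-1, NF-kB, E-box and the SMAD pair had 0 matches, with shares of 6.75%, 1.43%, 6.02% and 0.167% of all windows. Tnc, Spp1 and Postn have 2 windows each, of which those of Tnc overlap. The TATAAA and GC box matches of Tnc are the same sites in both windows and are counted in each.

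Thbs1 and Tnc rose first. At 3 h they were the members called, 2 of 9, against 3.26% of all genes called higher and 7.37% called in either direction. Thbs1 encodes a protein released from platelet granules and made by many activated cells, which binds CD47 and can switch on latent TGF-β. Its brightest probe (chr2:117952585-117952644, mm9, plus strand) read 0.60, -0.02 and 0.22 in the sham samples and 3.66, 4.19 and 4.28 at 3 h. At 12 h it read 5.52, 5.14 and 3.90, and at 72 h 4.01, 3.42 and 3.67. Every injured sample was above every sham sample, while the injured groups overlapped among themselves. The rise was 3.78 on the log2 scale at 3 h (SE 0.38, 13.7-fold, adjusted p = 0.000191), 4.59 at 12 h (24.0-fold, adjusted p = 4.24e-05) and 3.43 at 72 h (10.8-fold, adjusted p = 0.000297). The second probe, which lies in another part of the gene, gave 3.72, 4.51 and 3.27.

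The peak of Thbs1 at 12 h was not settled. The mean was highest at 12 h, 4.86 ± 0.85 (SD, n = 3), but 12 h replicate 3 was below the 3 h replicates 2 and 3. The step from 3 to 12 h was 0.81 (SE 0.38, adjusted p = 0.223), and within slide 1, which leaves that sample out, it was 1.29 (adjusted p = 0.0468). From 12 to 72 h the brightest probe differed by -1.15 (adjusted p = 0.0603), and the second probe fell by 1.25 (adjusted p = 0.0109). With slide as a block, the first of these differences was -0.20 (adjusted p = 0.768).

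Tnc encodes a large many-armed glycoprotein that is nearly missing from most adult tissue and appears at sites of injury, where it loosens cell adhesion and can act on Toll-like receptor 4. Its brightest probe (chr4:63620819-63620864, mm9, minus strand) read -1.28, -1.53 and -1.47 in sham and -0.26, -0.29 and -0.11 at 3 h. It read 1.02, 0.75 and 0.99 at 12 h and 0.54, 0.34 and 0.37 at 72 h. No group overlapped with any other. Tnc rose by 1.21 at 3 h (SE 0.12, adjusted p = 0.000185), 2.35 at 12 h (5.1-fold, adjusted p = 3.65e-06) and 1.85 at 72 h (adjusted p = 1.63e-05). It was also the only member called between 3 and 12 h, at 1.14 (adjusted p = 0.00117), against 3.46% of all genes called in that step. That call was lost with normexp background correction (0.97) and with the mean of all probes (0.89), both under 2-fold, and the call at 3 h was lost with normexp (0.79). The junction probe of Tnc printed above gave smaller values, 0.94, 1.59 and 1.47, and was not called at 3 h or between 3 and 12 h.

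Spp1 encodes osteopontin, a phosphoprotein that binds integrins and CD44 and is made in quantity by macrophages in wounds. Its probe (chr5:104869788-104869847, mm9, plus strand) read -0.78, -1.25 and 0.84 in sham and 2.84, 1.5 and 0.41 at 3 h. It read 3.79, 3.00 and 1.93 at 12 h and 4.68, 3.81 and 3.55 at 72 h. The spread within groups was wide, with an SD of 1.1 in sham and 1.22 at 3 h, and the 3 h group overlapped with sham through sham replicate 3 and 3 h replicate 3. The difference at 3 h was 1.98 (SE 0.72, adjusted p = 0.0865) and passed the test without either of these samples. Spp1 rose by 3.30 at 12 h (9.87-fold, adjusted p = 0.00926) and by 4.41 at 72 h (21.2-fold, adjusted p = 0.00251). Neighbouring times were not separated, since the step from 12 to 72 h was 1.1 (adjusted p = 0.335).

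**Figure D1:**
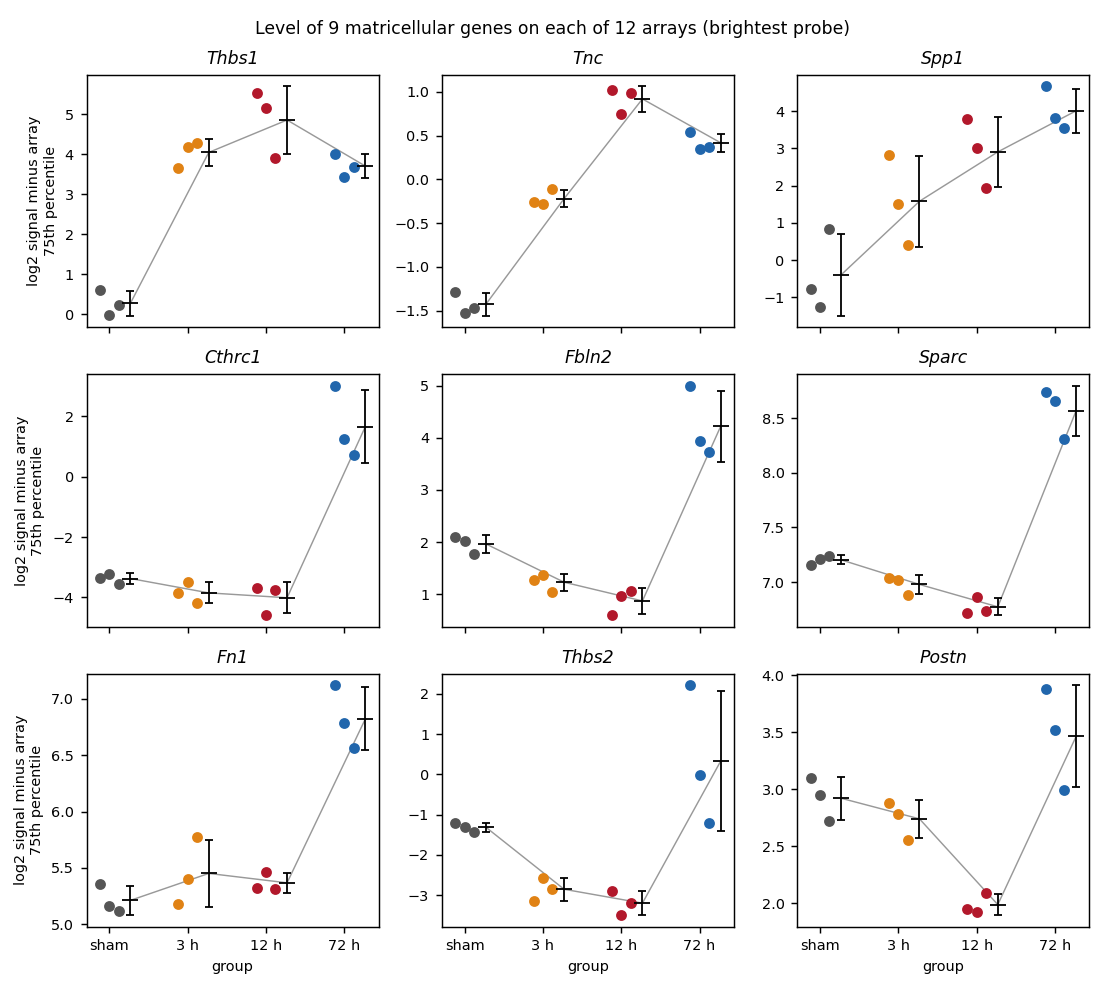
Level of each gene by its brightest probe, as log2 signal minus the array's 75th percentile (vertical axis, scaled separately in each panel), on the 3 arrays of each of 4 groups (horizontal axis). Coloured points are arrays in order of replicate number, black bars the group mean ± SD, and grey lines join the means. Thbs1 and Tnc are above sham on all injured arrays, while Cthrc1, Fbln2, Sparc and Fn1 are at their highest on the 72 h arrays.

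At 12 h, 4 of the 9 members were called, with Thbs1, Tnc and Spp1 higher and Fbln2 lower, against 9.06% of all genes called. The median of the members was -0.43 at that time and -0.01 over all genes. The arrays of 12 h and sham did not overlap for 8 of the 9 genes, while 36.2% of all genes had no overlap. The exception was Fn1.

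The other 6 genes encode proteins that bind or arrange collagen and elastic fibres, and 0 of them were called higher at 3 or 12 h. At 72 h, 7 of 9 members were called higher and 0 lower, against 4.55% of all genes called higher and 8.85% in either direction. The median of the members was 1.85, that of all genes -0.14. The members not called at 72 h were Postn and Thbs2. From 12 to 72 h, 6 members were called higher, namely Cthrc1, Thbs2, Fbln2, Sparc, Postn and Fn1, against 4.33% of all genes called higher and 7.52% in either direction. From 3 to 72 h, 6 were called higher (6.19% of all genes higher, 11.7% either way), with Spp1 in place of Postn.

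Cthrc1 had the largest difference of the members at 72 h by the brightest probes. With slide as a block it was below Spp1 and Thbs1 at that time, at 4.64 against 5.87 and 4.87, and with the mean of all probes, of which 1 was at background, it was 2.45. Cthrc1 encodes a small secreted protein with a collagen-like stretch, known from injured arteries and from activated fibroblasts. Its brightest probe (chr15:38918272-38918331, mm9, plus strand) read -3.34, -3.22 and -3.55 in sham, -3.85, -3.50 and -4.20 at 3 h and -3.69, -4.59 and -3.74 at 12 h. The 72 h samples read 3.02, 1.24 and 0.73. The sham, 3 h and 12 h samples lay between -4.59 and -3.22, and the 72 h samples were all above them. The rise over sham was 5.04 (SE 0.50, 32.8-fold, adjusted p = 0.000166), and that over 12 h was 5.67 (51.0-fold, adjusted p = 0.000177). The other Cthrc1 probe, designed on a different transcript, gave no reading above background on any array.

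Fbln2 encodes fibulin-2, which links elastic fibres, fibronectin and basement membrane. Its only probe (chr6:91222118-91222177, mm9, plus strand) read 2.10, 2.02 and 1.77 in sham, 1.27, 1.37 and 1.05 at 3 h and 0.59, 0.96 and 1.05 at 12 h. By 72 h the values were 5.0, 3.94 and 3.73. All samples of 3 and 12 h were below all sham samples, and all samples of 72 h were above them. Fbln2 fell by 1.09 at 12 h (2.14-fold, SE 0.29, adjusted p = 0.0225). This call was lost when sham replicate 1, sham replicate 2, 12 h replicate 1 or 12 h replicate 2 was left out, with adjusted p between 0.0503 and 0.0826. At 72 h it rose by 2.26 (4.78-fold, adjusted p = 0.000687), and with slide as a block the value was 1.98 (adjusted p = 0.0862). The rise over 12 h was 3.35 (10.2-fold, adjusted p = 0.000163) and with the block 3.17 (adjusted p = 0.00642).

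Sparc encodes osteonectin, a collagen-binding protein that accompanies newly made procollagen. Its brightest probe (chr11:55208939-55208998, mm9, minus strand) read 7.16, 7.21 and 7.24 in sham, 7.03, 7.02 and 6.88 at 3 h and 6.72, 6.86 and 6.74 at 12 h. The values at 72 h were 8.74, 8.66 and 8.31. The groups did not overlap, although the steps down were small, with -0.43 between sham and 12 h (adjusted p = 0.0330, less than 2-fold). The rise at 72 h over sham was 1.37 (2.58-fold, SE 0.12, adjusted p = 9.79e-05). The junction probe of Sparc printed above read 3.98, 4.14 and 4.07 in sham and 7.24, 6.46 and 5.74 at 72 h. Its difference was 2.42 (5.34-fold, adjusted p = 0.000516), well over that of the brightest probe. Its last probe, on an Ensembl transcript and above background on 8 arrays, differed by 0.37 (adjusted p = 0.622).

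Fn1 encodes fibronectin, which circulates in plasma and is also made in the wound with extra domains. Its brightest probe (chr1:71632116-71632175, mm9, minus strand) read 5.36, 5.16 and 5.11 in sham, 5.18, 5.40 and 5.77 at 3 h and 5.32, 5.47 and 5.31 at 12 h. At 72 h it read 7.12, 6.79 and 6.56. The sham, 3 h and 12 h groups overlapped, and the 72 h samples were above all of them. Fn1 rose by 1.61 at 72 h (3.06-fold, SE 0.18, adjusted p = 0.000320). The 4 probes of Fn1, spread over the gene, all passed the test at 72 h, with 1.61, 2.01, 1.93 and 1.69, and 0 of them did so at 3 or 12 h.

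Thbs2 encodes a relative of Thbs1 that is made by fibroblasts, restrains vessel growth and takes part in the ordering of collagen fibrils. Its probe, the junction probe printed above, read -1.20, -1.30 and -1.43 in sham, -3.14, -2.58 and -2.85 at 3 h and -2.90, -3.50 and -3.20 at 12 h. At 72 h it read 2.21, -0.01 and -1.20. All samples of 3 and 12 h were below all sham samples, while the 72 h group spread from the sham level to well above it, with an SD of 1.73. The difference was -1.54 at 3 h (adjusted p = 0.128), -1.89 at 12 h (adjusted p = 0.0672) and 1.65 at 72 h (adjusted p = 0.109). These values share 1 estimate of the spread, to which the 72 h samples contribute. Within slide 1, which holds no 72 h sample, Thbs2 fell at 3 h (-1.54, adjusted p = 0.00403) and at 12 h (-1.89, adjusted p = 0.00271). Without 72 h replicate 3, the 72 h difference was 2.41 (adjusted p = 0.0136). The rise from 12 to 72 h was 3.53 (11.6-fold, adjusted p = 0.00538), and with slide as a block 3.54 (adjusted p = 0.0834).

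Postn encodes periostin, a protein induced by TGF-β in fibroblasts that helps to cross-link collagen. Its brightest probe (chr3:54194483-54194542, mm9, plus strand) read 3.10, 2.95 and 2.72 in sham, 2.88, 2.79 and 2.56 at 3 h and 1.95, 1.93 and 2.10 at 12 h. At 72 h it read 3.88, 3.52 and 2.99. The 12 h samples were below all others, and the 72 h samples overlapped with sham through 72 h replicate 3. At 12 h the difference was -0.93 (adjusted p = 0.00961), short of the 2-fold threshold, and at 72 h it was 0.54 (adjusted p = 0.0935). The rise from 12 to 72 h passed both thresholds, at 1.48 (2.78-fold, SE 0.21, adjusted p = 0.00136). The other probes bright on all arrays gave -0.88 and -0.93 at 12 h and 0.52 and 0.43 at 72 h. The last, on an Ensembl transcript and above background on 10 arrays, gave -1.82 at 3 h (adjusted p = 0.0533).

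**Figure D2:**
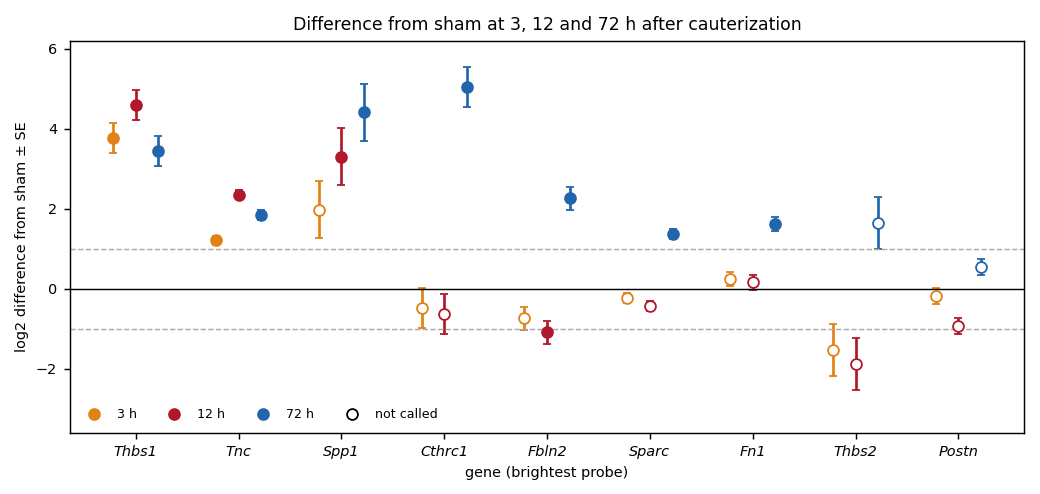
Log2 difference from sham (vertical axis, ± SE of the limma fit, n = 3 per group) of each gene's brightest probe at 3, 12 and 72 h. Filled points were called (more than 2-fold, adjusted p under 0.05), open points were not, and dashed lines mark a 2-fold change. Thbs1 and Tnc are called at all times, Spp1 from 12 h, and Cthrc1 has the highest point, 5.04 at 72 h.

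**Figure D3:**
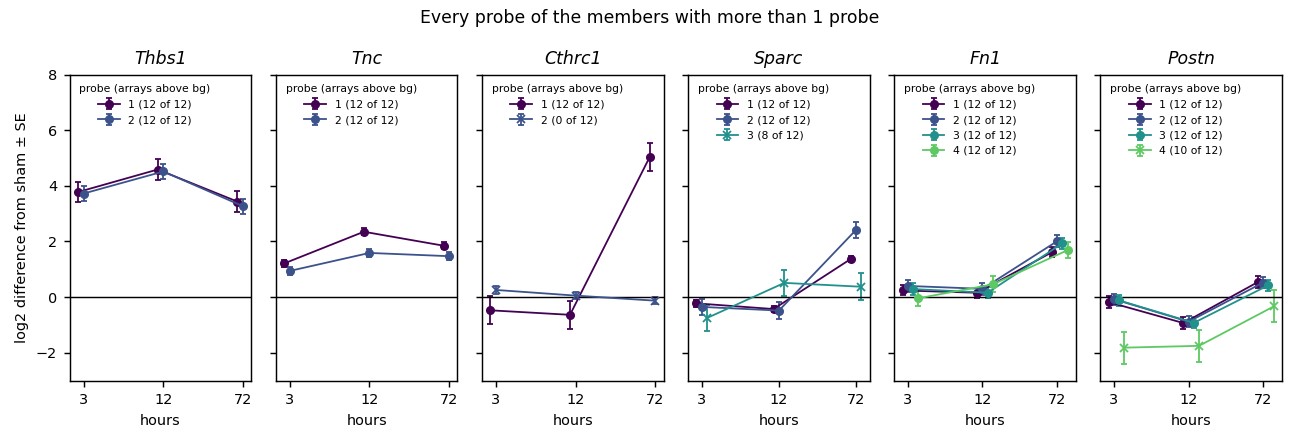
Log2 difference from sham (vertical axis, ± SE, n = 3 per group) of every probe of the 6 genes with more than 1 probe, at 3, 12 and 72 h. Crosses mark probes that were not above background on all 12 arrays. The probes of Thbs1 and Fn1 lie close together, while at 72 h the Sparc probes lie at 1.37, 2.42 and 0.37 and those of Cthrc1 at 5.04 and -0.13.

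The 72 h samples differed from each other in a shared way. Replicate 1 was the highest of its group for all 9 genes, and replicate 3 the lowest for 7 of them. The summed level of 12 fibroblast genes, led by Col1a2, Col3a1 and Col1a1, followed the same order, at 9.65, 9.0 and 8.31 in 72 h replicates 1, 2 and 3. Endothelial markers (4.63, 4.09 and 3.47) and mesothelial markers (5.16, 4.6 and 4.51) did so too, while smooth muscle markers ran the other way (7.75, 8.0 and 8.15). The other lists followed neither order. Macrophage markers read 7.37, 7.27 and 7.35, and neutrophil markers 8.79, 8.45 and 9.31. Platelet markers read 5.04, 4.66 and 4.67, and epithelial markers 9.80, 10.24 and 10.21. These samples are pieces of whole tissue, in which fewer cells of a type and less RNA per cell cannot be told apart.

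The 72 h values were recomputed with the slide taken into account. With slide as a block, 21 of the 26 calls made over the 6 comparisons were kept. All 5 lost calls were in comparisons with 72 h, and none was between sham, 3 h and 12 h. They were Fbln2 against sham, Thbs2 against 12 h, and Thbs2, Spp1 and Fn1 against 3 h. At 72 h against sham the blocked values of Cthrc1, Sparc and Fn1 were 4.64, 1.42 and 1.70 (adjusted p = 0.0353, 0.0155 and 0.0321), and those of Thbs1, Tnc and Spp1 were 4.87, 1.74 and 5.87 (adjusted p = 0.000919, 0.00534 and 0.0416). Within slide 2, the 72 h samples were compared with 12 h replicate 3 alone, on the assumption that this sample varies like the others. There the late genes differed by 5.41 for Cthrc1, 3.54 for Thbs2, 3.17 for Fbln2, 1.83 for Sparc, 1.51 for Fn1 and 1.37 for Postn, and 0 of 9 members were called, as were 17 of all genes.

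Other genes measured on the same arrays had courses close to those of the members. Closeness was the root mean square difference over the 12 arrays, on the log2 scale and after centring on sham, among genes called at the time of the member's largest change. For Thbs1 the nearest were Ptgs2, which makes prostaglandins, Plaur, the urokinase receptor, and Cd14, at 0.43, 0.45 and 0.49. For Tnc they were Itprip, Cd55 and Daf2, at 0.21, 0.23 and 0.23, of which Cd55 and Daf2 shield cells from complement. Spp1 had no very close neighbour, with Inhba, Cxcr1 and Rufy4 at 0.70, 0.80 and 0.83. For Fbln2 the nearest were Col3a1, Col5a1 and the mesothelial gene Bnc1, at 0.22, 0.22 and 0.25. Bnc1 was above background on 3 of 12 arrays, all at 72 h, so its values in the other groups are readings at background. For Sparc they were Mfap4, C1qc and Afap1l1, at 0.16, 0.16 and 0.21, and for Fn1 C1qb, a transcript without a symbol and Rhoq, at 0.13, 0.15 and 0.19. For Cthrc1 they were Cpz, Tbx18 and Trem2, at 0.48, 0.66 and 0.74. Among the members themselves, Fn1 and Sparc were the nearest pair, at 0.43, followed by Postn and Sparc at 0.51.

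A list of 40 further matricellular and related matrix genes was read in the same way. At 3 h, 4 were called higher and 6 lower, with a median of -0.41 (median of all genes 0.08). At 12 h, 5 were called higher and 15 lower (median -0.37), and at 72 h 17 higher and 1 lower (median 0.74). Genes called higher at all 3 times numbered 4, namely Ccn1, Ccn2, Ccn4 and Angptl4. Ccn1 and Ccn2, listed on the array as Cyr61 and Ctgf, are targets of mechanical and TGF-β signalling. Ccn1 rose by 3.00, 2.36 and 2.63 at 3, 12 and 72 h, and Ccn2 by 2.23, 1.62 and 2.36. Angptl4, which inhibits lipoprotein lipase, rose by 2.40, 2.48 and 3.55. Ccn4, listed as Wisp1, rose by 1.32 and 1.08 and then by 3.11 (SE 0.17, adjusted p = 6.92e-06).

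The genes that were lower at 12 h included proteoglycans and fibulins of resting connective tissue. Ogn fell by 3.27, Aspn by 1.94, Efemp1 by 1.77 and Lum by 1.63, of which Ogn, Aspn and Lum encode small leucine-rich proteoglycans and Efemp1 a fibulin. At 72 h these genes differed from sham by -0.41, 0.76, 0.08 and 1.47, and only Lum was called higher. Among the genes above background on all sham and 3 h arrays, the largest called falls at 3 h were those of Spock2, Vtn, Smoc2 and Ogn, at -1.39, -1.26, -1.11 and -1.08. Ccn5, listed as Wisp2, was above background on 0 arrays at 3 h, where sham was at least 2.05-fold higher (adjusted p = 0.0299). Spock2 was lower at all 3 times. From 12 to 72 h, 23 of the 40 were called higher and 0 lower, with a median of 1.42 (median of all genes -0.14).

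Relatives of the members on this list are given beside them by family, a grouping chosen after their values were seen. Among thrombospondins, Thbs3 differed by -0.73, -1.30 and 0.79 at 3, 12 and 72 h, Thbs4 by -0.75, 0.66 and 2.08 and Comp by -0.82, -1.57 and 0.54, where Thbs1 was raised at each time. Thbs3 and Comp were called lower at 12 h (adjusted p = 0.0233 and 0.00426) and Thbs4 higher at 72 h (adjusted p = 0.0370). Among tenascins, Tnxb was called lower at 3 and 12 h, at -1.02 and -1.63, when Tnc was called higher. Tnn, above background on 1 sham array, 0 arrays at 3 h, 2 at 12 h and 3 at 72 h, differed by 0.27 at 12 h and was called higher at 72 h, at 2.90 (adjusted p = 0.00487). Tnr was above background on 0 arrays. Among fibulins, Fbln1, Fbln5 and Fbln7 were called lower at 12 h, at -1.12, -1.39 and -1.42, together with Fbln2, but their values at 72 h were 0.62, 0.83 and 0.09 and were not called. Efemp1, given above, was likewise lower at 12 h alone. Efemp2 stood at -0.08 at 12 h and was called higher at 72 h, as Fbln2 was, at 1.76 (adjusted p = 0.000411). Whether these genes differ from the members beyond the spread was not tested as an interaction.

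**Figure D4:**
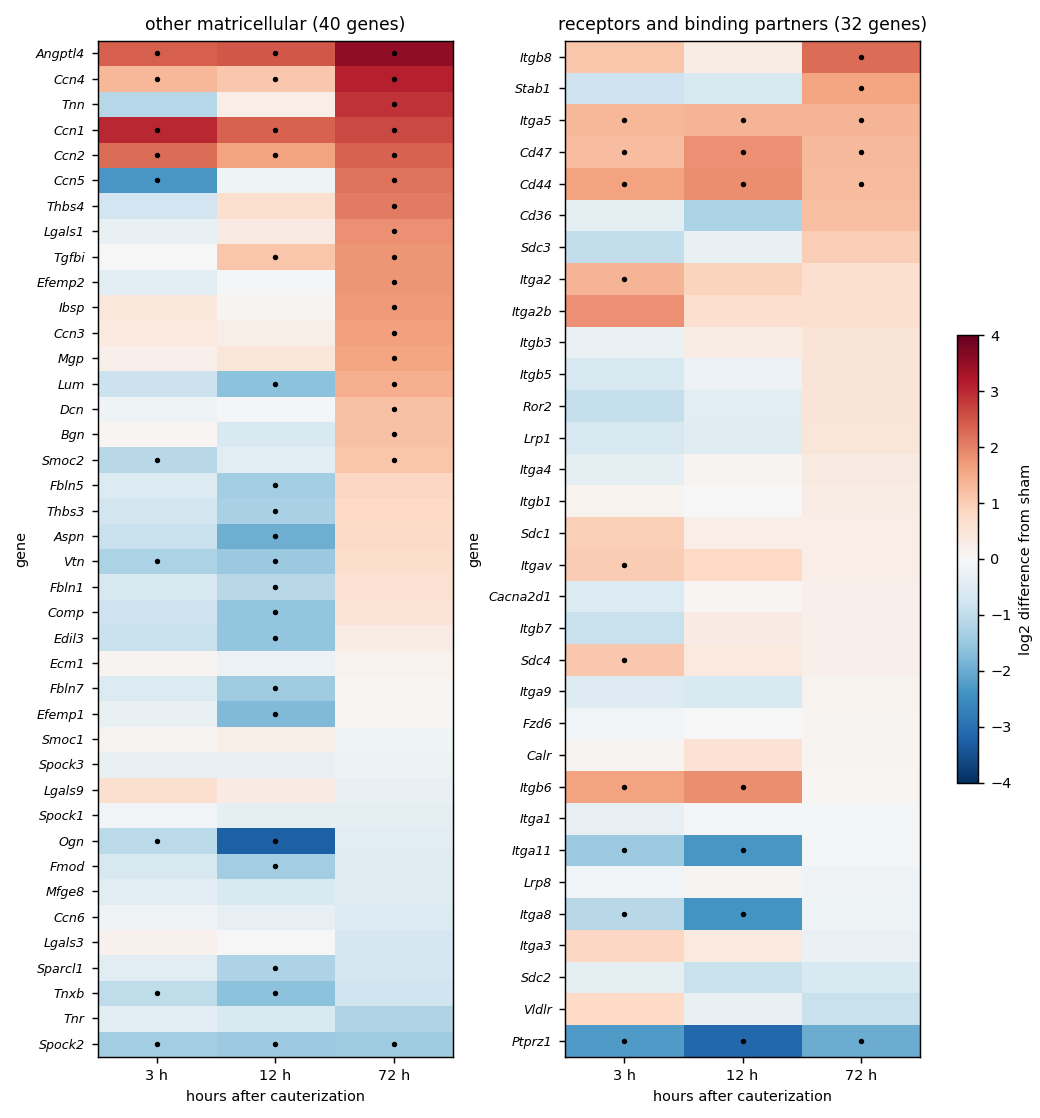
Log2 difference from sham (colour, from -4 to 4) at 3, 12 and 72 h for 40 further matricellular genes (left) and 32 receptors and binding partners (right), ordered by the 72 h value. Dots mark called genes. The left panel has 15 genes called lower at 12 h and 17 called higher at 72 h, and the right panel has 7, 4 and 5 called higher at 3, 12 and 72 h.

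The receptors of these proteins were read next. Of 32 receptors and binding partners, 7 were called higher and 3 lower at 3 h (median -0.19). The numbers were 4 higher and 3 lower at 12 h (median 0.07), then 5 higher and 1 lower at 72 h (median 0.26). Cd44, a receptor for hyaluronan and osteopontin, rose by 1.62, 1.86 and 1.25 (adjusted p = 7.62e-05, 2.24e-05 and 0.000274). Cd47, the thrombospondin-1 receptor, rose by 1.24, 1.84 and 1.29, and Itga5, the α chain of the fibronectin receptor, by 1.32, 1.36 and 1.37. These were the 3 genes of the list that were called higher at every time.

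Other integrin chains were called at some of the times. Itgb6, an epithelial chain that binds latent TGF-β, fibronectin and tenascin-C, rose by 1.62 and 1.86 at 3 and 12 h and stood at 0.07 at 72 h (adjusted p = 0.768). Itga2, a collagen receptor chain, rose by 1.35 at 3 h. Itgb8 rose by 2.23 at 72 h and Stab1, a macrophage scavenger receptor that takes up Sparc, by 1.59. Itga11 and Itga8, chains found on fibroblasts and smooth muscle, fell by 1.44 and 1.11 at 3 h and by 2.33 and 2.41 at 12 h, and at 72 h differed by -0.05 and -0.18. Ptprz1 was called lower at all 3 times, at -2.27, -3.13 and -1.98, and at 12 h it was above background on 2 of 3 arrays.

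Markers of several cell types moved with these groups of genes. Beside the early genes, 7, 9 and 7 of 12 neutrophil markers were called higher at 3, 12 and 72 h. Their summed level was 6.35 to 6.53 in sham, 8.49 to 9.23 at 3 h and 9.68 to 9.75 at 12 h. At 72 h it was 8.45 to 9.31, which overlaps with 3 h. S100a9 and S100a8 were the brightest of the list in the injured groups, and Csf3r in sham. Ly6g was called higher at 3 and 12 h, at 3.61 and 3.65, but differed by -0.08 at 72 h (adjusted p = 0.931). From 12 to 72 h, Ly6g was called lower, at -3.73. The summed level at 72 h thus did not follow Ly6g. Cxcr2, a neutrophil receptor, was not well above background in sham and at least 61.3-fold higher at 3 h. Of 7 platelet markers, 4 were called higher at 3 h and 2 each at 12 and 72 h. Their summed level was 2.13 to 2.35 in sham, 3.8 to 4.62 at 3 h, 3.52 to 4.39 at 12 h and 4.66 to 5.04 at 72 h. The chemokine Pf4 was above background on 12 arrays and Ppbp on 9, while Gp9, Gp5, Itga2b and Gp1ba were at or near background on most. Pf4 made up most of the platelet sum, with means of 2.18, 4.09, 3.99 and 4.75 in sham and at 3, 12 and 72 h. The median change of the platelet list was 1.91, 1.19 and 0.63 at 3, 12 and 72 h. Of the 4 called at 3 h, Gp9 was above background on 1 array of that time and Gp1ba on 0. The part of these cells in the Thbs1, Tnc and Spp1 values was not tested.

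Beside the late genes, 7 of 12 fibroblast markers were called higher at 72 h, with summed levels of 6.85 to 6.93 in sham, 6.01 to 6.41 at 3 h, 5.62 to 5.73 at 12 h and 8.31 to 9.65 at 72 h. For this sum, sham thus lay between the lower 3 and 12 h samples and the higher 72 h samples, as for Fbln2 and Sparc. Of the 12 markers, 0 were called at 3 h. At 12 h, 3 were called lower, namely Col1a2, Col1a1 and Col3a1, at -1.83, -1.63 and -1.21, and these lead the sum. The other 9 were not called then, with values from -0.69 for Fap to 0.37 for Pdgfrb. Of 13 macrophage markers, led by Cd14, Csf1r and C1qc, 2, 4 and 11 were called higher at 3, 12 and 72 h. Mertk was called lower at 3 h, at -1.03. The summed macrophage level was 5.44 to 5.54 in sham and 5.83 to 6.40 at 3 h. It reached 6.80 to 7.11 at 12 h and 7.27 to 7.37 at 72 h. Its rise at 3 and 12 h was mostly that of Cd14, with means of 1.81 in sham, 5.18 at 3 h and 6.30 at 12 h. The median change of the list was -0.01, 0.09 and 1.71 at 3, 12 and 72 h. Of 9 mesothelial markers, 1 was called higher and 4 lower at 3 h and at 12 h, and 5 were called higher and 0 lower at 72 h. The one higher at all times was Pdpn, the brightest of the list, which rose by 1.73, 2.32 and 2.58. The summed mesothelial level was 2.48 to 2.81 in sham, 3.36 to 3.69 at 3 h, 4.0 to 4.22 at 12 h and 4.51 to 5.16 at 72 h. At 3 and 12 h its rise was that of Pdpn, with means of 1.59 in sham, 3.33 at 3 h and 3.91 at 12 h. The median change of the list ran the other way at these times, at -1.54 and -1.16, and was 1.49 at 72 h. Upk3b and Lrrn4 were not above background on any 3 h or 12 h array, with sham at least 4.05-fold and 3.61-fold higher than 3 h, and were again above background at 72 h. Wt1 rose by 4.40 at 72 h. Smooth muscle markers were lower, 10 of 10 at 12 h and 7 of 10 at 72 h. Of 8 endothelial markers, 3 were called higher and 0 lower at 72 h. Of 12 epithelial markers, 0 were called higher and 3 lower at 72 h, with summed levels of 10.7 to 10.9 in sham and 9.80 to 10.2 at 72 h. The part of each cell type in the member values was not tested.

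**Figure D5:**
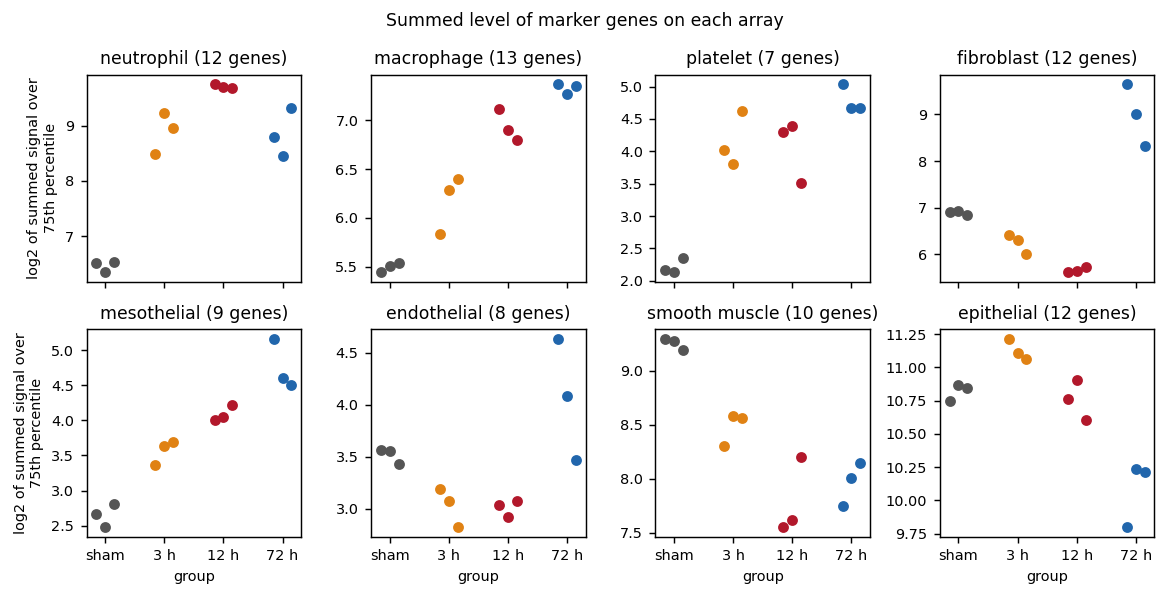
Log2 of the summed signal of marker genes over the array's 75th percentile (vertical axis, scaled separately in each panel) on each array, for 8 cell types and 4 groups (horizontal axis). Each point is an array, in order of replicate number. Signals were summed on the linear scale, so the brightest genes of a list weigh most. Fibroblast markers are at 5.62 to 5.73 at 12 h and 8.31 to 9.65 at 72 h, while neutrophil markers are highest at 12 h, at 9.68 to 9.75.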

How the data were processed

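RNA from mouse cecum was measured on 12 1-colour Agilent arrays, 3 per group, and samples were grouped by their labels. The time of the sham group, 0 h, comes from the methods. As deposited, 1 scanner file per array gives each spot's intensity on a linear scale after background correction, with probe coordinates of mm9. A second deposited table holds log2 values, which the authors scaled to the 75th percentile and centred per row, and it was used as an alternative. Both were made with Agilent software.

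Here, log2 intensity minus the array's 75th percentile over non-control probes was taken, and spots flagged as outliers (53 to 152 per array) were left out. The spots of a probe were averaged. Between 60.2% and 65.2% of probes were well above background. The limma functions lmFit, contrasts.fit and eBayes (limma 3.58.1, R 4.3.3) fitted 4 group means over all 12 arrays, and p-values were adjusted by Benjamini-Hochberg over 56605 probes. A call needed more than a 2-fold change and an adjusted p under 0.05, and a gene was represented by its probe of highest mean. A bound of a fold change was set against the dimmest probes well above background. The script was tested on simulated data. Figures were drawn with matplotlib 3.10.9.

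The members and the gene lists were chosen with earlier results of these data known. All 9 members were named with every probe. Of the related genes and receptors, up to 4 called genes per direction and time with the largest changes were named, and of the marker lists up to 3 with the highest mean and defining markers near background. The replicates are described as biological triplicates, with no number that ties samples together. Within groups, arrays correlated across probes at 0.985 to 0.992, and probes are not independent replicates. Same-numbered samples of different groups did not deviate together (correlations of -0.162 to 0.0866 over 18 pairs), so replicate numbers were not used as pairs. With 3 arrays per group, their number limits the precision.

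Alternatives were quantile normalization, the percentile over probes above background on all arrays, normexp (offset 50), the deposited table of log2 values, dim probes left out, outlier spots kept, a block for slide or for replicate number, robust eBayes with a trend, only the groups compared, the methods' t-test (paired, and not named for the arrays), the mean of all probes, no fold change threshold and each array left out. The comparisons within a slide were added after seeing the data.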

Additional observations from a re-analysis of the deposited data

Results flagged for a closer look

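Effects against sham that differed between neighbouring times in the direct comparison of those times are listed here. Between 3 and 12 h, Tnc differed by 1.14 on the log2 scale (limma, adjusted p = 0.00117), with all 12 h samples above all 3 h samples. Between 12 and 72 h, Cthrc1 differed by 5.67 (adjusted p = 0.000177), Thbs2 by 3.53 (adjusted p = 0.00538), Fbln2 by 3.35 (adjusted p = 0.000163), Sparc by 1.80 (adjusted p = 7.71e-05), Postn by 1.48 (adjusted p = 0.00136) and Fn1 by 1.46 (adjusted p = 0.000737). In each of these, all 72 h samples were above all 12 h samples. The 72 h samples were on slide 2 with 1 of the 12 h samples, and slide and time can be separated only through that sample.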

How the results depend on the processing

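The 3 arrays per group, the single time of the sham group and the layout of the slides limit these results. None of the 26 called member values reversed under any alternative run. Outside the methods' t-test and the comparison within slide 2, 18 of them kept their call throughout and 8 lost it at least once. The cause of these changes was not tested, except where an alternative leaves out samples.

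Under the methods' t-test, a paired test named for comparisons of 2 groups in general and not for the arrays, 0 members, 0 related genes and 0 receptors were called in any comparison after adjustment. At an unadjusted p below 0.05 with a fold change above 2 it called 3, 4, 7, 2, 5 and 4 members at 3, 12 and 72 h, from 3 to 12 h, from 12 to 72 h and from 3 to 72 h. With normexp, 1 member was called at 3 h and 0 from 3 to 12 h (Tnc at 0.79 and 0.97 was under 2-fold), while related genes called went to 6 and 11 at 3 and 12 h and receptors to 4 and 3 at 3 and 72 h. With slide as a block, members called were 2 from 3 to 12 h and 3 from 3 to 72 h, related genes 6 and receptors 2 at 72 h. Over all genes, the block lowered the calls at 72 h from 3282 to 1152. Within slide 1, 2 members were called from 3 to 12 h. Within slide 2, 0 were called from 12 to 72 h, against 6 at an unadjusted p. With the mean of all probes, 0 members were called from 3 to 12 h and 5 receptors at 3 h. Without a fold change threshold, 21, 11 and 13 receptors were called at 3, 12 and 72 h.

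Leaving out each array gave 2 to 3, 3 to 5, 7 to 8, 1 to 2, 6 to 7 and 5 to 6 members called in the 6 comparisons, in the order above. The count from 3 to 12 h was 2 without 12 h replicate 3. Related genes called were 4 to 11, 15 to 20 and 14 to 19 at 3, 12 and 72 h, and receptors 9 to 12, 7 to 8 and 6 to 8. At 3 h, related genes called were 5 without sham replicate 1, 4 without sham replicate 2 and 6 without 3 h replicate 1. The call of Spp1 from 3 to 72 h (2.43) was lost without 3 h replicate 2, 3 h replicate 3 or 72 h replicate 1 (adjusted p = 0.0718, 0.0897 and 0.0988).

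Values that were not called changed sign as follows. Thbs1 from 3 to 72 h was -0.34 and with slide as a block 1.09. Under quantile normalization, Fn1 at 3 h was -0.032, and from 3 to 12 h Sparc was 0.012 and Fn1 0.075. With the mean of all probes these steps were 0.31 and 0.046. From 3 to 12 h, leaving out an array moved Fn1 from -0.218 (without 3 h replicate 1) to 0.078 (without 3 h replicate 3), and Cthrc1 between -0.34 (without 3 h replicate 3) and 0.13 (without 12 h replicate 2), with 0.014 without 3 h replicate 2. Quantile normalization moved the median of all genes from -0.14 to -0.02 at 72 h. The samples share only a number, and with the replicate block 2, 4, 7, 1, 6 and 6 members were called in the 6 comparisons, as without it. For related genes the replicate block gave 9, 20 and 17 and for receptors 10, 7 and 6.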
